A study of Mus musculus with 12 samples.

Results

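The tumour necrosis factor (TNF) superfamily of ligands and receptors was followed in RNA of mouse peritoneal macrophages. Its members were taken by symbol: every measured gene whose name starts with Tnfsf or Tnfrsf and a number, plus Tnf, Lta, Ltb, Ltbr, Fas and Fasl. The table used held 18 such genes of 1448, which are 8 ligands and 10 receptors; Ltbr was not analysed here. Transcripts were counted on the NanoString nCounter, an assay that tallies barcoded probes bound to RNA without amplification. The study asked how PF-044 (PF044 in the study's title), which blocks EP2, a receptor for prostaglandin E2, acts on myeloid cells of young and aged mice. The first group was aged mice of 20 to 22 months given PF-044 by oral gavage at 2.5 mg/kg per day for 6 weeks. The second was aged mice of the same age whose agent is labelled None. The third was young mice of 3 to 4 months on the same PF-044 course, and the last was young mice with the agent None. Each group held 3 mice, and the groups without PF-044 are called untreated; whether these received a vehicle, and the strain and sex of all mice, are not in the labels.

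TNF superfamily ligands are mostly trimeric membrane or secreted proteins that cluster their receptors. Receptors with a death domain, such as Fas and TNF receptor 1, can start apoptosis or switch on the transcription factor NF-kB, while receptors without it recruit TRAF adaptor proteins. Macrophages are a main source of TNF and carry both TNF receptors, and lymphotoxins are made chiefly by lymphocytes.

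Values are the deposited normalized log2 levels, and none lies below 4.32, which is 20 on the linear scale. Of the 18 members, Tnfsf9 (4-1BB ligand) and its receptor Tnfrsf9 (4-1BB) sat at this floor in all 12 mice, which left 7 ligands and 9 receptors among the 1190 genes tested. Only Ltb, Tnfrsf1a, Tnfrsf8 and Tnfrsf14 were above the floor in every mouse. At the other end, Tnfrsf11a (RANK) was above the floor in 1 mouse, Tnfrsf17 (BCMA) in 2, Tnfsf4 (OX40 ligand) in 3 and Tnfsf10 (TRAIL) in 5. A member measured in a single group passes the filter because it is high there, so counts over the 16 tested members are descriptions and nothing is drawn from them about the family.

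Above the floor, values move in whole steps, from which count equivalents were inferred. Their sum was 533806 to 927475 in 11 mice and 175056 in aged untreated replicate 2, where 741 of 1448 genes sat at the floor, against 333 to 527 in the others. No value above the floor stood for fewer than 20 count equivalents, so in this shallow sample a floor value bounds a gene only below 6.25, 6.54 or 6.51 log2, depending on the set of genes it belongs to. This touched 12 of the 16 tested members, all but the 4 named above, and calls that rest on the sample are given also without it or with its floor values raised. The macrophage label could be checked on markers: Adgre1 (F4/80) ranged from 9.82 to 11.11 and Itgam (CD11b) from 10.89 to 12.46 log2 over all mice, while Itgax, Xcr1 and Clec9a of the 5 dendritic cell markers measured and Camp and Ly6g of the 6 neutrophil markers were at the floor everywhere. The other dendritic cell markers, Ccr7 and Flt3, and the other 4 neutrophil markers were above the floor in some or all mice. The B cell gene Ms4a1 (CD20) ranged from 12.1 to 15.3 log2, and T cell, NK cell and mast cell markers were also above the floor in these bulk samples. In aged untreated mice 5 B cell markers summed to 43749 to 49249 linear units and 9 macrophage markers to 5129 to 5790. In aged PF-044 mice these sums were 24161 to 27507 and 7476 to 8295. They were 10465 to 13285 and 8456 to 9375 in young PF-044 mice, and 9750 to 10802 and 11152 to 12014 in young untreated mice. In bulk RNA, fewer cells of a type and less RNA per cell cannot be told apart.

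Among the ligands, lymphotoxin beta (Ltb) stood highest in aged mice on PF-044. Tumour necrosis factor (Tnf) was listed lowest in aged untreated mice, at 5.43 and 5.42 log2 in replicates 1 and 3. Their replicate 2 was at the floor, which bounds Tnf only below 6.25, above the aged PF-044 mice (up to 5.95). Lymphotoxin beta anchors lymphotoxin heterotrimers to the membrane and signals through the lymphotoxin beta receptor. Tnf is the secreted inflammatory cytokine that gives the family its name, and Lta, lymphotoxin alpha, shares its receptors. The 3 genes are adjacent on chromosome 17 in RefSeq's table for GRCm38.p6. The promoter windows of Ltb and Tnf are shown because these neighbours differed in their changes with age. In untreated mice Ltb changed by -0.05 log2 and Tnf by -1.21, and in PF-044 mice by 0.58 and -0.89. With PF-044 in aged mice both were higher, by 0.70 and 0.74 log2. Ltb and Tnf were not tested against each other. Each window runs from 250 bases before to 50 bases after the RefSeq start, 5′ to 3′ on the gene's strand. Ltb lies at chr17:35194257-35194556 on the plus strand and Tnf at chr17:35201958-35202257 on the minus strand, and capitals mark matches to the NF-kB consensus.
Ltb promoter: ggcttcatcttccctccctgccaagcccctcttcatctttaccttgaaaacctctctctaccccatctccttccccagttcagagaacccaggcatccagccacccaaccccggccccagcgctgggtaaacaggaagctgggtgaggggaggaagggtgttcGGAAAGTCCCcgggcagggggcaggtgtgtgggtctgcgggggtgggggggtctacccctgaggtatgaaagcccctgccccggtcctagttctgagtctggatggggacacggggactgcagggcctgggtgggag
Tnf promoter: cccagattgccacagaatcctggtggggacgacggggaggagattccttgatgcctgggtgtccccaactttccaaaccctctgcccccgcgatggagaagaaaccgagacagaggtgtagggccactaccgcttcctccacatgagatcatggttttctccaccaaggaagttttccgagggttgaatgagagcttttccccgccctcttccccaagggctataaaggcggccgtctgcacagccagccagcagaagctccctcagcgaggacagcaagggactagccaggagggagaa
Both strands were searched for the NF-kB consensus, the AP-1 site TGAGTCA and the cAMP response element TGACGTCA. The Ltb window held 1 match to the NF-kB consensus, 87 to 78 bases before the start, and the Tnf window held no match to any of these. Over all 32851 windows of the RefSeq table, 8.46% held the NF-kB consensus, and a match is a description of the letters only.

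**Figure D1:**
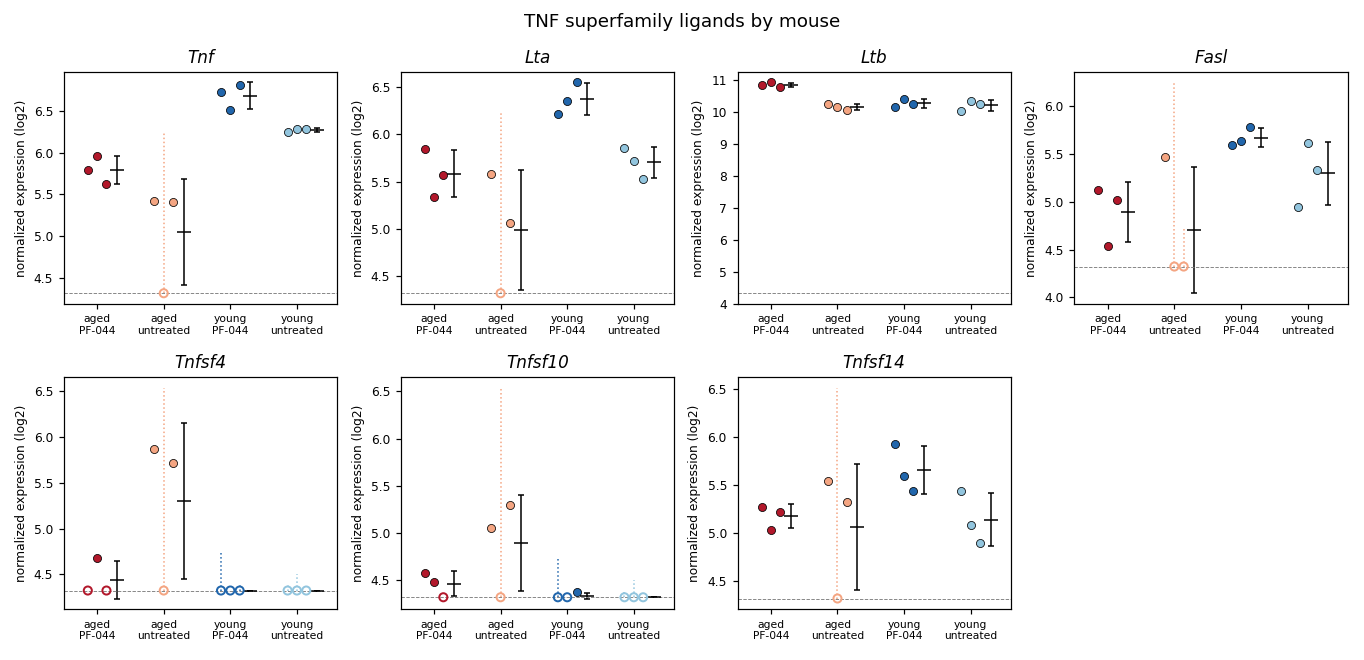
Normalized expression (log2) of the 7 tested ligands in each of 12 mice, with mean and SD of each group beside the points. Open circles are values at the floor (dashed line at 4.32), dotted lines run up to the bound such a value allows, and each panel has its own vertical axis. Ltb of all 3 aged PF-044 mice, at 10.80 to 10.93, lies above every other mouse, and Tnfsf4 leaves the floor in aged mice only.

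Ltb was at 10.84, 10.93 and 10.80 log2 in aged PF-044 mice, against 10.25, 10.15 and 10.08 in aged untreated mice. In young mice it was at 10.15, 10.43 and 10.25 log2 with PF-044 and at 10.03, 10.35 and 10.25 untreated. All 3 aged mice on PF-044 lay above all 9 other mice, and the other 3 groups overlapped. Ltb rose with PF-044 in aged mice by 0.70 log2 (SE 0.09, limma adjusted p = 8.23e-05), which is 1.62-fold, and its change with PF-044 in young mice was 0.07 (SE 0.09, adjusted p = 0.771). The PF-044 effect was larger in aged than in young mice by 0.63 log2 (SE 0.13, adjusted p = 0.00355), a test of the difference itself. Aged PF-044 mice were also above young PF-044 mice by 0.58 log2 (SE 0.09, adjusted p = 0.000335). With age in untreated mice Ltb differed by -0.05 log2 (SE 0.09, adjusted p = 0.645), which turns to 0.35 (adjusted p = 0.00283) when samples are centred on 4 reference genes. None of the calls on PF-044 in aged mice, on aged against young PF-044 mice and on the difference of effects was lost under any of the alternatives run. The B cell markers measured beside it, 5 of 9 listed, had a summed linear level of 24161 to 27507 in aged PF-044 mice, against 43749 to 49249 in aged untreated mice, and of 10465 to 13285 in young PF-044 mice, against 9750 to 10802 in young untreated mice. Of these, 1 rose and 2 fell with PF-044 in aged mice (25.7% of all genes rose and 15.2% fell). T cell markers, 8 of 10 listed, summed to 1836 to 1925 in aged PF-044 mice, against 1002 to 1074 in aged untreated mice. In young mice, where Ltb was lower than in aged PF-044 mice, they summed to 1846 to 2031 with PF-044 and to 2059 to 2292 untreated. Where 25.7% of all genes rose with PF-044 in aged mice, all 8 T cell markers rose (7 without aged untreated replicate 2). Their part in the Ltb levels was not tested.

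Tnf was at 5.79, 5.95 and 5.63 log2 in aged PF-044 mice, against 5.43, at the floor (4.32) and 5.42 in aged untreated mice. Young mice had 6.72, 6.50 and 6.81 log2 with PF-044 and 6.24, 6.29 and 6.28 untreated. Every young mouse lay above every aged mouse with a value above the floor, while the floor value of aged untreated replicate 2 bounds Tnf only below 6.25. In untreated mice Tnf fell by 1.21 log2 with age (SE 0.27, adjusted p = 0.00209), and the difference was -0.85 (adjusted p = 0.000266) without aged untreated replicate 2. A common floor of 100, above which only 2 Tnf values lie, both in young PF-044 mice, ended this and the other Tnf calls. Between aged and young mice on PF-044 it fell by 0.89 log2 (SE 0.27, adjusted p = 0.0207), a call lost on leaving out aged PF-044 replicate 1 or 3 or young PF-044 replicate 1 or 3 (adjusted p 0.0561 to 0.0712) or centring on reference genes (-0.72, adjusted p = 0.0825). Given PF-044, aged mice had Tnf 0.74 log2 higher (SE 0.27, adjusted p = 0.0454). The difference was 0.37 (adjusted p = 0.0502) without aged untreated replicate 2, and the call was lost on leaving out any of 10 of the 12 mice, all but aged untreated replicates 1 and 3 (adjusted p up to 0.129). It was also lost with no filter, with the replicate block (adjusted p = 0.0523), under each of the 3 other scalings, which are centring by the median, centring by reference genes and quantile normalization (adjusted p up to 0.173), and with the floor values of aged untreated replicate 2 raised to that sample's own limit (0.09, adjusted p = 0.72). In young mice the change with PF-044 was 0.41 log2 (SE 0.27, adjusted p = 0.398) and, at the same size, an adjusted p of 0.0395 without the shallow sample.

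Lta was at 5.84, 5.34 and 5.57 log2 in aged PF-044 mice, against 5.58, at the floor and 5.06 in aged untreated mice. It was at 6.22, 6.35 and 6.55 log2 in young PF-044 mice, against 5.86, 5.72 and 5.53 in young untreated mice. The young mice on PF-044 were the highest group and, as listed, overlapped no other. Lta fell by 0.72 log2 with age in untreated mice (SE 0.28, adjusted p = 0.048), but the difference was -0.38 (adjusted p = 0.121) without aged untreated replicate 2, and the call was lost on leaving out any mouse but aged untreated replicate 1 (adjusted p up to 0.136), with no filter, under each of the 3 other scalings (adjusted p up to 0.388) and with the raised floor (-0.07, adjusted p = 0.8). Between aged and young PF-044 mice it fell by 0.79 log2 (adjusted p = 0.0445), lost on leaving out any of 10 mice, all but aged untreated replicates 1 and 2 (adjusted p up to 0.155), and with no filter or under any of the other scalings (adjusted p up to 0.151). Its PF-044 changes were 0.60 log2 in aged mice (adjusted p = 0.113) and 0.67 in young mice (adjusted p = 0.15), where the adjusted p in young mice was 0.0233 without aged untreated replicate 2.

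Tnfsf4, which costimulates activated T cells through OX40, was above the floor in aged mice alone. It was at 4.68 log2 in aged PF-044 replicate 2 and at the floor in the other aged PF-044 mice, against 5.87 and 5.72 in aged untreated replicates 1 and 3 and the floor in replicate 2. All 6 young mice were listed at the floor. The fit, which takes the floor as a value, gave 0.98 log2 higher in aged than in young untreated mice (SE 0.31, adjusted p = 0.0191) and 1.47 (adjusted p = 1.71e-06) without aged untreated replicate 2. The call was lost without aged untreated replicate 1 or 3 or young untreated replicate 1 (adjusted p 0.0504 to 0.0767). With PF-044 in aged mice Tnfsf4 fell by 0.86 log2 (SE 0.31, adjusted p = 0.0454), a difference of -1.35 (adjusted p = 1.11e-05) without the shallow sample, and the call was lost without any of the other 11 mice (adjusted p up to 0.157), and with no filter, quantile normalization, a variance model without trend or the replicate block (adjusted p up to 0.0951). These sizes depend on the floor and are not fold changes of measured levels.

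Tnfsf10, the death ligand TRAIL, was also near the floor in most mice. It was at 4.58, 4.49 and the floor in aged PF-044 mice, against 5.06, the floor and 5.30 in aged untreated mice, and of the young mice only PF-044 replicate 3 left the floor, at 4.38. It rose with age in untreated mice by 0.57 log2 (SE 0.20, adjusted p = 0.028), lost without aged untreated replicate 1 or 3 or any young untreated mouse (adjusted p 0.0659 to 0.106), with no filter (adjusted p = 0.053) and on quantile normalization (adjusted p = 0.112). The change was 0.86 log2 without aged untreated replicate 2 and 0.37 without replicate 3. With PF-044 in aged mice the difference was -0.43 log2 (adjusted p = 0.106) and, without aged untreated replicate 2, -0.72 (adjusted p = 0.000453). Fasl, the ligand of Fas, ranged from 4.53 to 5.13 log2 in aged PF-044 mice, from the floor to 5.47 in aged untreated mice, from 5.59 to 5.79 in young PF-044 mice and from 4.94 to 5.61 in young untreated mice. It passed no test, and aged PF-044 mice, all below young PF-044 mice, differed from these by -0.78 log2 (adjusted p = 0.0619). Tnfsf14 (LIGHT), a ligand of HVEM and of the lymphotoxin beta receptor, ranged from 4.89 to 5.92 log2 in the 11 mice above the floor and passed no test either.

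Among the receptors, the TNF receptors Tnfrsf1a and Tnfrsf1b were lower in aged mice, Tnfrsf1a rose with PF-044 in aged mice, and Tnfrsf8 fell with PF-044 at both ages. Tnfrsf1a encodes TNF receptor 1, the death domain receptor found on most cells, and Tnfrsf8 encodes CD30, a receptor best known from activated lymphocytes. Their promoter windows are shown because PF-044 moved the pair in opposite directions in aged mice. Tnfrsf1a lies at chr6:125349473-125349772 on the plus strand and Tnfrsf8 at chr4:145315115-145315414 on the minus strand, with the same length and capitals, which here mark AP-1 matches too.
Tnfrsf1a promoter: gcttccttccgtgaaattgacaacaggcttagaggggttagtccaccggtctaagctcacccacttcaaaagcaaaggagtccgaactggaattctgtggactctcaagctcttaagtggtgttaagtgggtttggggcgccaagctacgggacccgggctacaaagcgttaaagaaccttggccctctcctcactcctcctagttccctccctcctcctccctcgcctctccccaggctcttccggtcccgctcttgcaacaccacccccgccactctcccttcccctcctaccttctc
Tnfrsf8 promoter: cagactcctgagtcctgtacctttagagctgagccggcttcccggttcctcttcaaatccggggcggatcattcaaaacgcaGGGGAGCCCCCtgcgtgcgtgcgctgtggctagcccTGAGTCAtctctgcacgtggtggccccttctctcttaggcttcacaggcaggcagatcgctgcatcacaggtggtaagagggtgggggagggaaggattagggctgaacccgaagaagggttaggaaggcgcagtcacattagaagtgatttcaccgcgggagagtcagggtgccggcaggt
The Tnfrsf8 window held 2 overlapping NF-kB consensus matches in a stretch of 11 bases, 168 to 158 bases before the start, and an AP-1 site 132 to 126 bases before it. The Tnfrsf1a window held none of the motifs. Of the 18 members, 16 had a window in the table, 17 windows in all; 3 of these held the NF-kB consensus, 4 the AP-1 site (5.2% of all windows) and 0 the cAMP response element (1.79% of all windows).

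**Figure D2:**
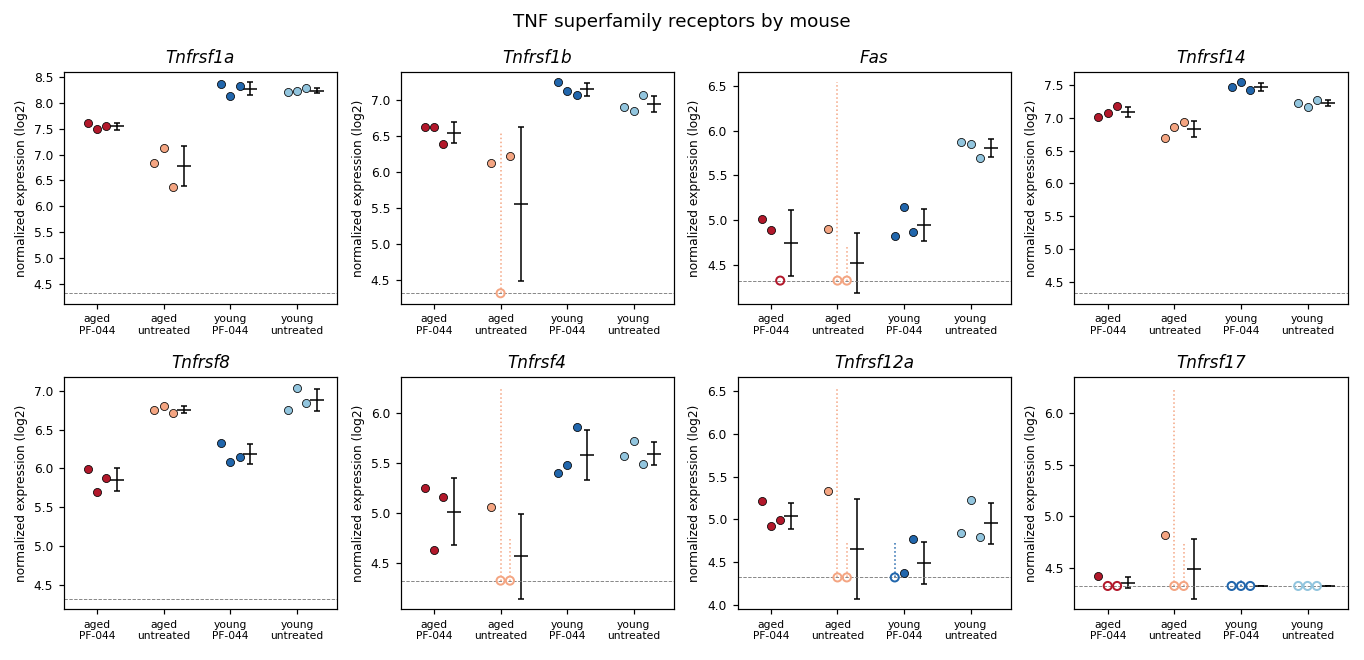
Normalized expression (log2) of 8 receptors in each of 12 mice, drawn as for the ligands, with a vertical axis per panel. Tnfrsf1a falls in aged untreated mice to 6.37 to 7.12, below all other mice, and Tnfrsf8 is lower in PF-044 mice than in untreated mice at both ages.

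Tnfrsf1a was at 7.62, 7.49 and 7.54 log2 in aged PF-044 mice, against 6.85, 7.12 and 6.37 in aged untreated mice. It was at 8.36, 8.12 and 8.32 log2 in young PF-044 mice and at 8.20, 8.22 and 8.29 in young untreated mice. The aged untreated mice were lowest, the aged mice on PF-044 came next without overlap, and both young groups overlapped above them. In untreated mice Tnfrsf1a fell by 1.46 log2 with age (SE 0.16, adjusted p = 7.94e-06), 2.74-fold. With PF-044 it rose in aged mice by 0.77 log2 (SE 0.16, adjusted p = 0.00198), and between aged and young PF-044 mice it fell by 0.72 log2 (SE 0.16, adjusted p = 0.00325). The change with PF-044 in young mice was 0.03 log2 (adjusted p = 0.998), and the PF-044 effect was 0.74 log2 larger in aged mice (SE 0.22, adjusted p = 0.0277). That last call was lost on leaving out aged PF-044 replicate 1 or 3, young PF-044 replicate 2 or any young untreated mouse (adjusted p 0.0516 to 0.0702). It was also lost with no filter and under each of the 3 other scalings (0.50 to 0.64 log2, adjusted p 0.051 to 0.0859), while the other Tnfrsf1a calls were kept under every alternative run. The macrophage markers measured, 9 of 10 listed, summed to 7476 to 8295 linear units in aged PF-044 mice, against 5129 to 5790 in aged untreated mice, and to 8456 to 9375 in young PF-044 mice, against 11152 to 12014 in young untreated mice. Of these markers 8 passed the test as lower with age in untreated mice and 7 as higher with PF-044 in aged mice (8 and 6 without aged untreated replicate 2). The shares of all genes were 32.9% and 25.7%. With PF-044 in young mice 3 markers were lower and 1 was higher (5.71% and 8.4% of all genes). Between aged and young PF-044 mice 2 markers were lower and 1 was higher (22.5% and 15% of all genes). Their part in the Tnfrsf1a levels was not tested.

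Tnfrsf1b, the TNF receptor 2 of immune cells, was at 6.63, 6.63 and 6.39 log2 in aged PF-044 mice, against 6.13, the floor and 6.23 in aged untreated mice. Young mice had 7.25, 7.12 and 7.08 log2 with PF-044 and 6.90, 6.86 and 7.07 untreated. Aged mice lay below young mice throughout, and the bound of the floor value, 6.54, is also below every young mouse. It fell by 1.38 log2 with age in untreated mice (SE 0.39, adjusted p = 0.0105), and the difference was -0.76 (adjusted p = 0.000242) without aged untreated replicate 2. The difference with PF-044 in aged mice was 0.99 log2 (SE 0.39, adjusted p = 0.065) and, without the shallow sample, 0.37 (adjusted p = 0.0307). The difference between aged and young PF-044 mice was -0.60 log2 (adjusted p = 0.285, and 0.001 without aged untreated replicate 2).

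Tnfrsf8 was at 5.99, 5.70 and 5.87 log2 in aged PF-044 mice, against 6.76, 6.80 and 6.72 in aged untreated mice. In young mice it was at 6.33, 6.08 and 6.14 log2 with PF-044, against 6.75, 7.04 and 6.85 untreated. All 6 mice on PF-044 lay below all 6 untreated mice, and the untreated groups of both ages overlapped. With PF-044, Tnfrsf8 fell by 0.90 log2 in aged mice (SE 0.15, adjusted p = 0.000473) and fell by 0.69 log2 in young mice (SE 0.15, adjusted p = 0.00904). The aged effect minus the young effect was -0.21 log2 (SE 0.21, adjusted p = 0.523, 95% interval -0.671 to 0.251), and the age difference in untreated mice was -0.12 (SE 0.15, adjusted p = 0.505). The call in aged mice was lost only with a common floor of 100 linear units (-0.11 log2, adjusted p = 0.129), which lies above all 6 PF-044 values. The value of aged untreated replicate 2 rests on 24 count equivalents.

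Fas, the death receptor that Fasl binds, was at 5.01, 4.89 and the floor in aged PF-044 mice, against 4.90, the floor and the floor in aged untreated mice. It was at 4.82, 5.15 and 4.87 log2 in young PF-044 mice, against 5.87, 5.86 and 5.69 in young untreated mice. As listed, young untreated mice were the highest group and overlapped no other, but the floor value of aged untreated replicate 2 allows up to 6.54. Fas fell by 0.86 log2 with PF-044 in young mice (SE 0.21, adjusted p = 0.0185), a call lost on leaving out young PF-044 replicate 1 or 3 or young untreated replicate 1 or 2 (adjusted p 0.0589 to 0.0804) and with the raised floor (adjusted p = 0.141). It fell by 1.29 log2 with age in untreated mice (SE 0.21, adjusted p = 0.000245), but with the floor values of aged untreated replicate 2 raised the difference was -0.65 (adjusted p = 0.146). In aged mice the change with PF-044 was 0.22 log2 (adjusted p = 0.407). The PF-044 effect in aged minus that in young mice was 1.08 log2 (SE 0.30, adjusted p = 0.0186), lost without aged PF-044 replicate 1 (adjusted p = 0.0523), on centring by reference genes (0.85, adjusted p = 0.0665) and with the raised floor (0.44, adjusted p = 0.545).

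Tnfrsf14, or HVEM, the receptor of LIGHT, was at 7.02, 7.07 and 7.18 log2 in aged PF-044 mice, against 6.69, 6.86 and 6.93 in aged untreated mice. It was at 7.47, 7.54 and 7.42 log2 in young PF-044 mice, against 7.23, 7.17 and 7.27 in young untreated mice. Within each age all PF-044 mice were above all untreated mice. With age it fell by 0.39 log2 in untreated mice (SE 0.11, adjusted p = 0.00775) and fell by 0.39 log2 in PF-044 mice (SE 0.11, adjusted p = 0.0127; 0.0542 without aged PF-044 replicate 1). Neither passed under another scaling. In untreated mice the difference was -0.21 log2 on centring by the median, -0.22 on quantile normalization and 0.01 on centring by reference genes, and in PF-044 mice it was -0.30, -0.19 and -0.22 in the same order (adjusted p 0.0601 to 0.29). The changes with PF-044 were 0.26 log2 in aged mice (adjusted p = 0.0731) and 0.25 log2 in young mice (adjusted p = 0.151).

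Tnfrsf4, the T cell receptor OX40 that Tnfsf4 binds, ranged from 4.63 to 5.24 log2 in aged PF-044 mice, and was at 5.05 in aged untreated replicate 1 and at the floor in the other aged untreated mice. It ranged from 5.40 to 5.86 log2 in young PF-044 mice and from 5.49 to 5.72 in young untreated mice. As listed, every aged mouse lay below every young mouse, and OX40 RNA fell by 1.03 log2 with age in untreated mice (SE 0.23, adjusted p = 0.00274). With the raised floor the difference was -0.38 (adjusted p = 0.354). All 8 T cell markers measured also fell with age in untreated mice (32.9% of all genes fell), to a sum of 1002 to 1074 in aged against 2059 to 2292 in young untreated mice. With PF-044 in aged mice all 8 rose (25.7% of all genes rose), and 7 without aged untreated replicate 2. Tnfrsf4 did not pass there (0.45 log2, limma adjusted p = 0.158). Between aged and young PF-044 mice the T cell sums were 1836 to 1925 and 1846 to 2031. Tnfrsf4 differed by -0.56 log2 between them (limma adjusted p = 0.0829). The part of T cells in the Tnfrsf4 level was not tested. Tnfrsf12a (Fn14), Tnfrsf17 and Tnfrsf11a passed no test, and Tnfrsf12a ranged from the floor to 5.33 log2.

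The comparisons can be counted against the background of all tested genes, with the filter above in mind. With age in untreated mice 9 of 16 members passed, where 54% of all 1190 genes did; 2 ligands rose (21.2% of all genes rose), and 2 ligands and 5 receptors fell (32.9% of all genes fell). The median change was -0.35 log2 over the members and -0.07 over all genes, and 6 members had groups that did not overlap (56.4% of all genes). With PF-044 in aged mice 5 of 16 passed against 40.9% of all genes; 2 ligands and 1 receptor rose (25.7% of all genes), and 1 ligand and 1 receptor fell (15.2%). The median was 0.24 log2 over the members and 0.02 over all genes, and 6 members did not overlap (45.8% of all genes). With PF-044 in young mice 2 of 16 passed, Fas and Tnfrsf8, both lower, against 14.1% of all genes (8.4% higher and 5.71% lower). The median was 0.03 log2 for the members and 0.02 for all genes, and 7 members did not overlap (39.4% of all genes). Between aged and young PF-044 mice 5 of 16 passed (37.5% of all genes), Ltb higher (15% of all genes higher) and Tnf, Lta, Tnfrsf1a and Tnfrsf14 lower (22.5%), and 11 members did not overlap (51.6% of all genes). The difference of PF-044 effects passed for 3 of 16, Ltb, Fas and Tnfrsf1a, all higher in aged mice, where 25.7% of all genes passed and 15% were higher. In the order of these comparisons, the members' shares of calls were 56.2%, 31.2%, 12.5%, 31.2% and 18.8%, to be read against the shares of all genes just given. Comparisons that share a group of mice are not independent of each other.

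**Figure D3:**
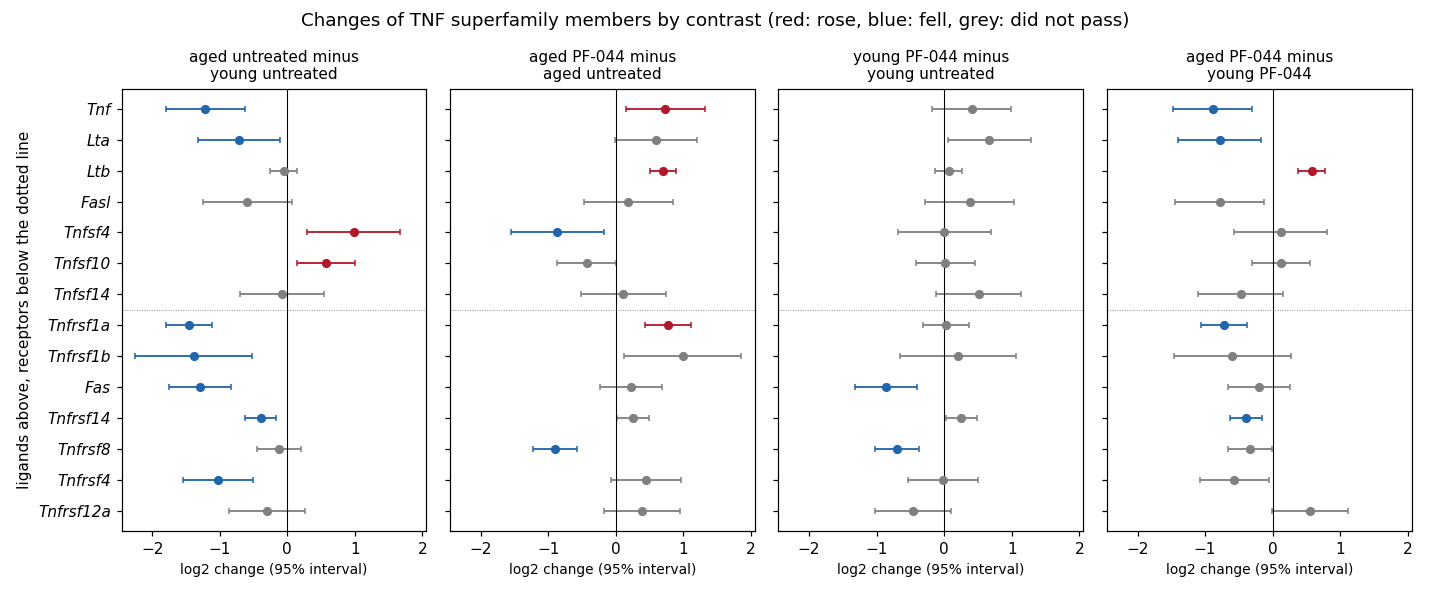
Log2 change of 14 members in 4 comparisons, with 95% intervals of the limma fit; red points rose, blue points fell, and grey points did not pass. Tnfrsf8 is the member left of zero with PF-044 at both ages, at -0.90 in aged and -0.69 in young mice, and Ltb lies right of zero in the comparisons that have aged PF-044 mice first, at 0.70 and 0.58.

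Leaving out the shallow aged untreated replicate 2 left 8 members passing with age (2 higher, 6 lower; 55.5% of all genes passed in that fit) and 6 with PF-044 in aged mice (3 higher, 3 lower; 43% of all genes). With PF-044 in young mice 4 then passed, 2 higher and 2 lower (19.9% of all genes), and between aged and young PF-044 mice 9 passed, 1 higher and 8 lower (45.7%). For the difference of effects 6 passed, 3 higher and 3 lower (30.5%), where all 3 in the full data were higher. With PF-044 in aged mice, Ltb was then at 0.69, Tnfrsf8 at -0.88 and Tnfrsf1a, also measured in that sample, at 0.94 log2. Of the members at its floor, Tnf and Tnfrsf1b were both at 0.37 log2 and Fas was at 0.13.

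**Figure D4:**
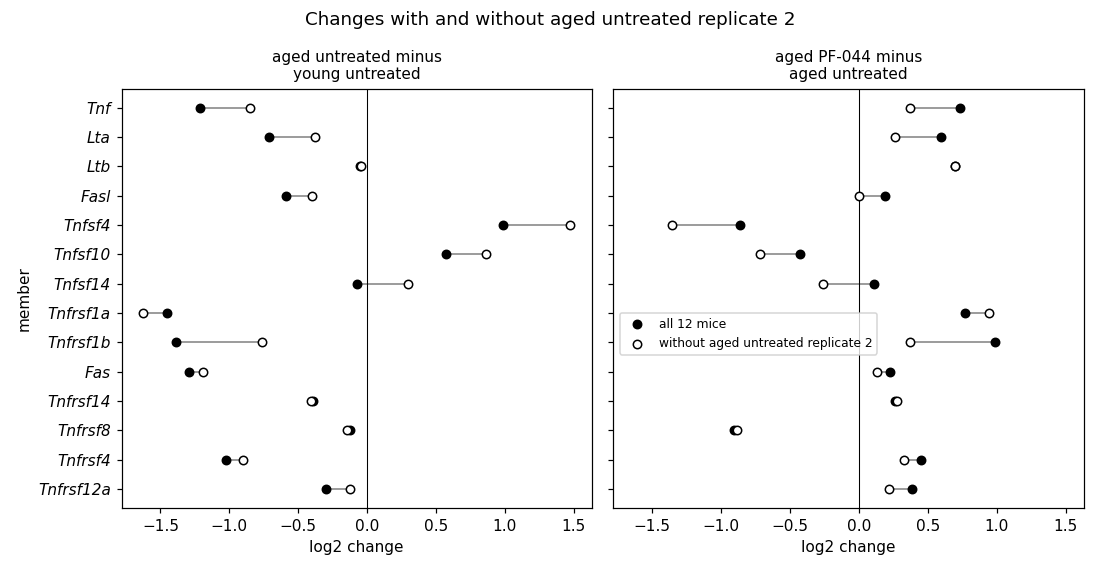
Log2 change of 14 members with age in untreated mice and with PF-044 in aged mice, from all 12 mice (filled) and without aged untreated replicate 2 (open). Joined points lie together for Ltb (0.70 and 0.69 with PF-044) and apart for Tnfsf4 (-0.86 and -1.35) and Tnfrsf1b (0.99 and 0.37).

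Genes of TNF receptor signalling were described from a list of 42 genes, of which 23 were measured and 22 tested. With age in untreated mice 7 rose and 8 fell (31.8% and 36.4% of the list, against 21.2% and 32.9% of all genes), with a median change of -0.0049 log2 over the list and -0.07 over all genes. Nfkbiz, an atypical IkB protein, fell by 1.72 log2 (SE 0.07, adjusted p = 3.3e-09). Tnfaip3 (A20), an inhibitor of NF-kB signalling, fell by 1.40 log2 (SE 0.08, adjusted p = 4.44e-08). The kinase Mapk8 (JNK1) rose by 0.85 log2 (SE 0.06, adjusted p = 1.72e-07) and the ubiquitin ligase Birc2 (cIAP1), which binds TRAF2, rose by 0.95 (SE 0.09, adjusted p = 1.9e-06). Of the list, 5 genes rose and 4 fell with PF-044 in aged mice (22.7% and 18.2%, against 25.7% and 15.2% of all genes). The NF-kB subunit precursor Nfkb2 rose by 0.87 log2 (SE 0.08, adjusted p = 5.17e-06), Nfkbiz by 0.83 (adjusted p = 3.43e-06) and Tnfaip3 by 0.65 (adjusted p = 5.81e-05). Mapk8 fell by 0.63 log2 (adjusted p = 7.08e-06) and Birc2 fell by 0.57 (adjusted p = 0.000256). With PF-044 in young mice 3 rose (13.6%, against 8.4% of all genes) and 1 (4.55%, against 5.71%) did the opposite: Tnfaip3 fell by 0.31 log2 (adjusted p = 0.0249), a call lost on leaving out young PF-044 replicate 1 or 2 or young untreated replicate 1 (adjusted p up to 0.0959). The PF-044 effect on Tnfaip3 was 0.96 log2 larger in aged mice (SE 0.11, adjusted p = 0.000113). Between aged and young PF-044 mice 3 genes of the list were higher and 7 lower (13.6% and 31.8%, against 15% and 22.5% of all genes). The genes named here are examples, and the shares say nothing particular about the list.

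A further 4 superfamily genes whose names the symbol rule does not take were tested. With PF-044 in aged mice 3 of them rose (75%, against 25.7% of all genes). With age in untreated mice 2 fell (50%, against 32.9% of all genes). Without aged untreated replicate 2, 3 rose with PF-044 in aged mice, while 1 rose and 1 fell with age. Cd27, a costimulatory receptor of lymphocytes, was at 7.16, 6.82 and 7.28 log2 in aged PF-044 mice, against 5.88, the floor and 6.00 in aged untreated mice. It ranged from 7.49 to 7.60 log2 in young PF-044 mice and from 7.71 to 7.83 in young untreated mice. It fell by 2.36 log2 with age in untreated mice (SE 0.35, adjusted p = 0.00011) and rose with PF-044 in aged mice by 1.68 (SE 0.35, adjusted p = 0.00222). Without aged untreated replicate 2 these differences were -1.82 (adjusted p = 3.06e-07) and 1.14 (adjusted p = 3.7e-05), and the groups did not overlap in either comparison. Cd40, the receptor through which T cells help B cells and macrophages, rose with PF-044 in aged mice by 0.67 log2 (SE 0.18, adjusted p = 0.00951), and by 0.43 (adjusted p = 0.00845) without aged untreated replicate 2. Ngfr, the nerve growth factor receptor p75, rose by 0.999 log2 (SE 0.31, adjusted p = 0.0213) in the same comparison, and by 0.59 (adjusted p = 0.0238) without that sample, where it is at the floor. The Ngfr call was lost without aged PF-044 replicate 1 or 3 (adjusted p up to 0.0632). Cd40lg, the ligand of Cd40, fell by 1.29 log2 with age in untreated mice (SE 0.40, adjusted p = 0.0173), with 2 of 3 aged untreated mice at the floor. The call was lost without aged untreated replicate 2 (-0.99, adjusted p = 0.054) or 3 or young untreated replicate 2 (adjusted p up to 0.0715). With PF-044 in young mice 0 of the 4 passed the limma test, where 14.1% of all genes passed. In that comparison 1 had an unadjusted p under 0.05, and Cd40 passed at 0.49 log2 (adjusted p = 0.00538) without aged untreated replicate 2. Cd70, the ligand of Cd27, was at the floor in all mice.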

How the data were processed

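Total RNA of 12 mouse samples was measured on the nCounter. The authors deposited normalized log2 values, used here as they stand; limma is listed, without version or role, in the submitters' processing notes. Background step, scaling and floor: not given in the sources used here. All 18 members matched a symbol of the RefSeq gene table (GRCm38.p6), which was used for names, and promoters come from RefSeq's windows of that build. Values above the floor fell on whole multiples of a step, found separately for 3 sets of genes (11913 of 11921 values, 99.9%, within 0.006 linear units; 18 of 18 simulated steps were found again). Dividing by the step gave count equivalents, inferred and not raw counts.

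Genes at the floor in all samples (258) were left out, and 1190 entered a model with a coefficient per group (limma 3.58.1 under R 4.3.3, with eBayes and its trend option), which has 8 residual and 3.27 prior degrees of freedom. The 5 contrasts were two-sided, and Benjamini-Hochberg adjustment ran over the 1190 genes, with calls at 0.05. The fit assumes equal spread in all groups, which floor values in 1 mouse of a group go against. The script was tested on simulated data. Replicates are separate mice by the series' design text. Their numbers were not taken as pairs, since correlations of same-numbered samples' deviations ran from -0.297 to 0.537 over 18 pairs.

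Every member is accounted for. Those called in any contrast, and Tnf, Lta, Ltb, Fas, Fasl and both TNF receptors whatever their test, are given with values. Named genes of the lists are examples picked among the called ones. Some with a smaller p were passed over, such as Nfkb2 with age in untreated mice (-1.38 log2, limma adjusted p = 2.99e-08). Other genes named, among them members that passed no test and marker genes, were also picked after their values were seen. Members, marker lists and pathway lists were chosen with earlier results of these data known. Alternatives covered the filter, the floor, the scaling, the variance model, sample weights, a replicate block and leaving out each mouse. Raising the floor values of aged untreated replicate 2 to that sample's lowest measured level, 75.9 linear units, was chosen after seeing the data.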

Additional observations from a re-analysis of the deposited data

Results flagged for a closer look

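For 3 members the PF-044 effect differed between aged and young mice by the limma test of that difference over 1190 genes, with aged minus young as the direction. Ltb differed by 0.63 log2 (SE 0.13, adjusted p = 0.00355): the 3 aged PF-044 mice were above the 3 aged untreated mice, and the young groups overlapped. Fas differed by 1.08 log2 (SE 0.30, adjusted p = 0.0186), from a change of 0.22 in aged mice and of -0.86 in young mice, with floor values in 1 aged PF-044 and 2 aged untreated mice. Tnfrsf1a differed by 0.74 log2 (SE 0.22, adjusted p = 0.0277), from changes of 0.77 in aged mice and 0.03 in young mice.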

How the results depend on the processing

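Of 24 called member results 8 were kept under every alternative in which the gene was tested. Tnfrsf1a was kept in the age contrasts with and without PF-044 and with PF-044 in aged mice. Ltb was kept with PF-044 in aged mice, between aged and young PF-044 mice and in the difference of effects. Tnfrsf8 was kept with PF-044 in young mice, and Tnfrsf1b with age in untreated mice, where 21 of the 22 alternatives tested it. The other 16 were lost under at least 1 alternative, and of 56 results that were not called 28 passed under at least 1. Centring on reference genes turned Ltb with age in untreated mice to 0.35 log2 and Tnfrsf14 to 0.0111. Where causes are not given below, the cause was not tested.

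Members passing with age in untreated mice (9) were 2 among genes above the floor in all mice, where 4 members are left to test (75.9% of all genes passed), and 3 with a common floor of 100, where 6 are left (71.2%). With PF-044 in aged mice (5) they were 3 with the common floor (55.1% of all genes), 10 with array weights (7 higher, 3 lower; 42.8%) and 3 with the replicate block (42.2%). With PF-044 in young mice (2) they were 1 among genes above the floor in all mice (27.5%), 6 with array weights (4 higher, 2 lower; 32.6%) and 1 with the raised floor (15%). Between aged and young PF-044 mice (5) they were 3 on centring by the median (38%), 3 on centring by reference genes (34.5%) and 10 with array weights (54.5%). For the difference of effects (3) they were 1 on centring by reference genes (25.7%) and 6 with array weights (4 higher, 2 lower; 34.9%). Array weights gave aged untreated replicates 1 and 2 the lowest weights, 0.093 and 0.175. The replicate block left the other 4 counts at 9, 2, 5 and 3.

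Leaving out 1 mouse gave 6 to 9 members with age in untreated mice. With PF-044 in aged mice it gave 3 to 8, 8 without aged untreated replicate 1 and 3 without any aged PF-044 or any young mouse. With PF-044 in young mice it gave 1 to 4, 4 without aged untreated replicate 2 and 1 without young PF-044 replicate 1 or 3 or young untreated replicate 1 or 2. Between aged and young PF-044 mice it gave 2 to 9, 8 and 9 without aged untreated replicates 1 and 2, and 2 or 3 without aged or young PF-044 replicate 1 or 3. For the difference of effects it gave 1 to 6, 1 without aged PF-044 replicate 1 and 6 without aged untreated replicate 2.

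Over all genes, 168 calls with PF-044 in young mice became 388 with array weights, 107 on centring by reference genes and 101 to 237 on leaving out 1 mouse. Centring by the median and by reference genes shifted the median change of all genes with age in untreated mice by 0.19 and 0.41 log2, with PF-044 in aged mice by -0.13 and -0.23, between aged and young PF-044 mice by 0.09 and 0.17, and in the difference of effects by -0.10 and -0.23. The share of calls that were higher moved with it, in the same order of contrasts and with the unshifted share last, to 56.1% and 71.3% (39.2%), 48.1% and 34.9% (62.8%), 52.2% and 63.2% (39.9%), and 43.3% and 26.8% (58.2%). Quantile normalization gave 53% (39.9%) between aged and young PF-044 mice and 48.8% (59.5%) with PF-044 in young mice. Depth limits the members at the floor of aged untreated replicate 2, which lie under its bound and are not measured there.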

Other observations

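Markers of NK cells, mast cells, dendritic cells and neutrophils were also read. NK cell markers, 7 of 8 listed, summed to 950 to 1011 linear units in aged PF-044 mice, against 381 to 564 in aged untreated mice, and to 646 to 825 in young PF-044 mice, against 737 to 840 in young untreated mice. Of these 7 genes 4 fell with age in untreated mice (57.1%, against 32.9% of all genes). With PF-044 in aged mice 2 rose (28.6%, against 25.7% of all genes). The low end of 381 is aged untreated replicate 2, with 5 of the 7 at the floor. Mast cell markers, all 8 listed, summed to 6318 to 9103 in aged PF-044 mice, against 5614 to 6275 in aged untreated mice, and to 11616 to 14568 in young PF-044 mice, against 10457 to 11868 in young untreated mice. With age in untreated mice 6 of the 8 fell (75%, against 32.9% of all genes). With PF-044 in aged mice 3 of the 8 rose (37.5%, against 25.7% of all genes), and 2 without aged untreated replicate 2. Neutrophil markers summed to 135 to 145 in aged PF-044 mice, against 120 to 290 in aged untreated mice, and to 120 to 132 in young PF-044 mice, against 129 to 161 in young untreated mice. These sums are largely floor values. In each aged PF-044 mouse 5 of the 6 markers were at the floor. The sums of 120, in the shallow aged untreated replicate 2 and in young PF-044 replicate 1, have all 6 there. Of the 4 tested, 1 fell with PF-044 in aged mice (25%, against 15.2% of all genes), and 2 without aged untreated replicate 2. S100a9 fell by 1.12 log2 (adjusted p = 0.0358), a difference of -1.68 without aged untreated replicate 2. That call was lost on leaving out any of 8 other mice (adjusted p up to 0.11). In all 12 mice S100a8 (-0.35 log2, adjusted p = 0.576), Cxcr2 (-0.26, adjusted p = 0.266) and Mpo (-0.19, adjusted p = 0.281) did not pass. Dendritic cell markers summed to 1205 to 1268 in aged PF-044 mice, against 719 to 737 in aged untreated mice, and to 891 to 1026 in young PF-044 mice, against 1804 to 1984 in young untreated mice. Itgax, Xcr1 and Clec9a were at the floor in every mouse, so beyond floor values these sums hold Ccr7 and Flt3 alone. Ccr7 rose with PF-044 in aged mice by 0.86 log2 (adjusted p = 2.43e-06), while it fell by 1.02 log2 with PF-044 in young mice (adjusted p = 5.01e-06) and fell by 1.45 log2 with age in untreated mice (adjusted p = 8.81e-09). Flt3 fell by 1.33 log2 with age in untreated mice (adjusted p = 0.00726), a difference of -0.97 (adjusted p = 0.0181) without aged untreated replicate 2. With PF-044 Flt3 did not pass, at 0.18 log2 in aged mice (adjusted p = 0.709) and -0.44 in young mice (adjusted p = 0.517). Of all genes 25.7% rose with PF-044 in aged mice, 5.71% fell with it in young mice and 32.9% fell with age in untreated mice. The part of these cells in the levels of the superfamily members was not tested.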
